A study of Mus musculus with 3 samples.

Results

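The transcripts described here are 10 genes of white and brown fat, Ucp1, Cidea, Elovl3, Lep, Adipoq, Cfd, Retn, Fabp4, Plin1 and Car3, measured in whole mouse thymus. They were taken by symbol, matched by Ensembl identifier to GENCODE release M21, from 52636 gene identifiers in the count files. The genes were named with earlier results of these same libraries known, so their levels and their spread are given as a description and not as a test. The samples are 3 normal thymi of C57BL/6 mice of the genotype Cic flox/flox that had received tamoxifen, with 1 library each, and are named thymus 1, 2 and 3 by their labelled replicate number. Cic encodes the repressor capicua, and these thymi served as the littermate controls of a study on T cell lymphomas that lack it. The lymphomas are not analysed here, so all 3 libraries share 1 genotype and 1 treatment and no contrast between conditions is made. The labels give no age, no sex, no Cre allele and no animal for a library, so the spread between libraries may be technical in part.

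Adipocytes store triglyceride in lipid droplets and release it as fatty acid, and they secrete hormones, the adipokines, into the blood. White adipocytes hold 1 large droplet and make leptin, adiponectin, adipsin and, in mice, resistin. Brown adipocytes hold many small droplets and many mitochondria, and uncoupling protein 1 lets those mitochondria turn fatty acid oxidation into heat. The thymus of the mouse lies in the mediastinum, next to depots of both kinds of fat, and fat also forms inside the organ as it shrinks with age.

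Upstream sequences are shown for Ucp1, Lep and Adipoq, because these 3 genes carry the main pattern: the brown fat gene and the hormone gene with the widest ranges of their kind between thymi, beside the gene with the narrowest range. The sequences are from RefSeq on GRCm38.p6, all on the plus strand, and each covers the 240 bases from 250 to 11 bases before the transcript start, 5′ to 3′. Capitals mark matches to 5 short motifs searched on both strands: the TATA box as TATAA, its variant TATATA, the box bound by NF-Y, CCAAT, the nuclear receptor half-site AGGTCA, and the C/EBP palindrome TTGCGCAA.
Ucp1, chr8:83290098-83290337: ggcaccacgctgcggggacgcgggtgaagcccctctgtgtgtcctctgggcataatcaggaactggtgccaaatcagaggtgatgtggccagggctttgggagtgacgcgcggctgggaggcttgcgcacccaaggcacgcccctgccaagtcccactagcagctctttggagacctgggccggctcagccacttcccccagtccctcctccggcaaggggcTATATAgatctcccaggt
Lep, chr6:29059971-29060210: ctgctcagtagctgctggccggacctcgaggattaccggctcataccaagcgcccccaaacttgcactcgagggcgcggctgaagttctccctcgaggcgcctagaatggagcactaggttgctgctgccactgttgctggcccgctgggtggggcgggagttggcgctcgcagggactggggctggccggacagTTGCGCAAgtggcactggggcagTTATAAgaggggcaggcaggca
Adipoq, chr16:23146286-23146525: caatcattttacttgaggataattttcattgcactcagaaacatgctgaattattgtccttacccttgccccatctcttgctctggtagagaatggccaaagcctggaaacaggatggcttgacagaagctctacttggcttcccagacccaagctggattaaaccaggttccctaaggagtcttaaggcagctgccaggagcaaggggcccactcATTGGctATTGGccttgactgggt
The Ucp1 window held TATATA 28 bases before the start, a motif present in 5.13% of 32851 windows of the same length. The Lep window held TTGCGCAA 55 bases before the start, present in 0.161% of windows, and TATAA on both strands in overlapping letters at 32 and 31 bases, present in 22.4%. The Adipoq window held CCAAT on the minus strand at 34 and 27 bases, present in 33% of windows. AGGTCA, present in 13.5% of windows, was not among the letters of these windows or of those of Cfd, Plin1 and Retn, the other 3 genes with an entry in the table. The 3 windows shown had no motif match in common.

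Between 25408442 and 30414788 reads per library fell on the sense strand of genes. Levels are depth-scaled counts (CPM) with TMM scaling factors, and 3 counts correspond to 0.0986 to 0.122 CPM. The tissue label was borne out by its markers: all 5 thymocyte genes and all 5 thymic epithelial genes checked reached 1 CPM in each of the 3 libraries, led by Rag1 and Cd8a and by Prss16 and Ccl25, with summed levels of 8383 to 8939 CPM and 1737 to 1927 CPM. All 3 libraries differed widely in erythroid genes, whose 5 members, led by Hbb-bs and Hba-a1, summed to 1024, 47.1 and 223.5 CPM in thymus 1, 2 and 3. The 10 fat genes together summed to 199.1, 288 and 223 CPM in thymus 1, 2 and 3. Of the 10 genes 7 reached 1 CPM in each library, against 26.9% of all gene identifiers, and Ucp1, Cidea and Elovl3 did not. The 10 genes made up 0.0199%, 0.0296% and 0.0216% of the assigned reads. These 10 transcripts were thus a small share of the assigned reads, which does not measure the RNA of fat cells as a whole. In bulk tissue fewer cells of a type and less RNA per cell cannot be told apart.

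**Figure D1:**
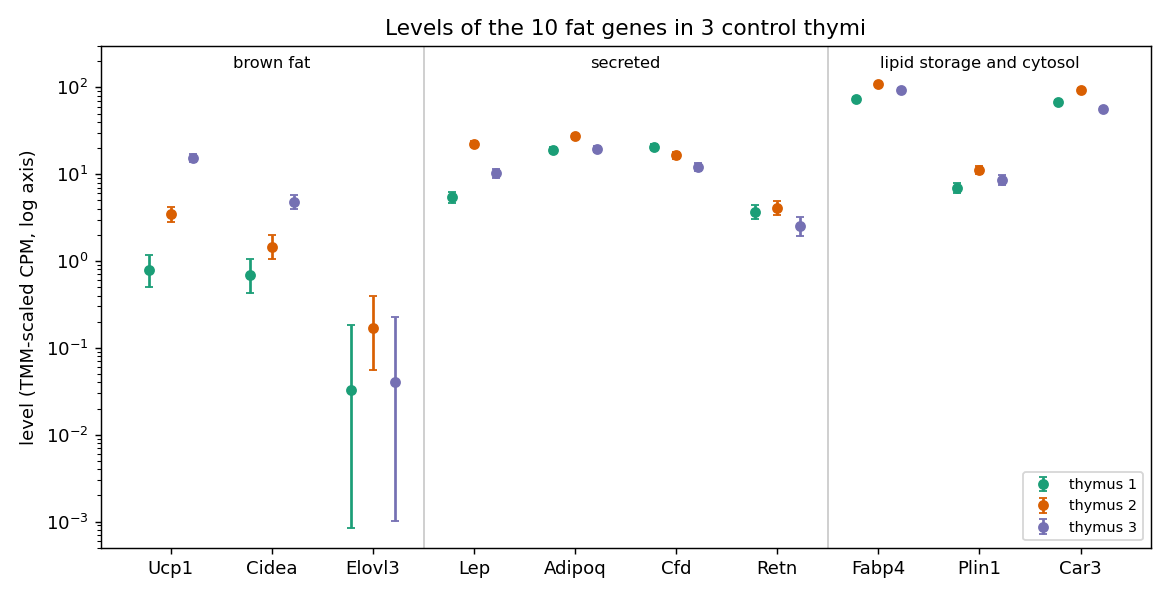
Level of each of the 10 fat genes in thymus 1, 2 and 3 (TMM-scaled CPM, log axis), grouped by role; points are single libraries and bars are exact 95% Poisson intervals of the count, which cover counting error only. Ucp1 and Cidea are highest in thymus 3, whereas Lep, Adipoq, Retn, Fabp4, Plin1 and Car3 are highest in thymus 2 and Cfd is highest in thymus 1.

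The 3 brown fat genes summed to 1.51, 5.11 and 20.2 CPM in thymus 1, 2 and 3, so thymus 3 was highest. Ucp1 (chromosome 8, 83290352 to 83298452, plus strand), which encodes the mitochondrial proton channel of brown fat, had 24, 102 and 377 reads in thymus 1, 2 and 3. These are 0.789 CPM (exact Poisson 95% interval 0.505 to 1.17), 3.48 CPM (2.84 to 4.22) and 15.3 CPM (13.8 to 16.9). The 3 intervals did not overlap, and the level in thymus 3 was 19.4 times that in thymus 1 (interval of the ratio 12.8 to 30.7). Between neighbours in this order the step was similar, with thymus 2 at 4.41 times thymus 1 (2.80 to 7.19) and thymus 3 at 4.398 times thymus 2 (3.53 to 5.53). These intervals cover counting error only. Cidea, on chromosome 18, encodes a lipid droplet protein that is abundant in mouse brown fat. It had 21, 43 and 119 reads, or 0.690, 1.47 and 4.83 CPM, in thymus 1, 2 and 3. Thus Cidea had the same order as Ucp1 with a smaller span, thymus 3 being 6.995 times thymus 1 (4.37 to 11.7). Elovl3 (chromosome 19, 46131897 to 46135694, plus strand), which encodes an elongase of very long chain fatty acids induced by cold in mouse brown fat, had 1, 5 and 1 reads. Elovl3 was therefore at or below 3 counts in thymus 1 and 3, its intervals overlapped in all 3 libraries, and at this depth no difference was detectable. Cidea overlaps B430212C06Rik and Elovl3 overlaps Pitx3, each on the other strand; the counts used strand, and neither gene had reads on the opposite one. All 10 genes are annotated as protein coding, and positions are on GRCm38.

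The genes of secreted proteins did not share that order. Lep (chromosome 6, 29060220 to 29073877, plus strand), which encodes leptin, had 165, 649 and 252 reads in thymus 1, 2 and 3. These are 5.42 CPM (4.63 to 6.32), 22.1 CPM (20.5 to 23.9) and 10.2 CPM (9.001 to 11.6). Lep was thus highest in thymus 2, at 4.08 times thymus 1 (3.43 to 4.87), and thymus 3 stood between them. Adipoq (chromosome 16, 23146536 to 23158028, plus strand), which encodes adiponectin, stood at 18.8, 27.2 and 19.5 CPM from 573, 799 and 481 reads. Adipoq in thymus 3 was 1.04 times that in thymus 1, with an interval of 0.916 to 1.17 that spans 1, although Ucp1 differed most between these same libraries. Cfd (chromosome 10, 79890853 to 79892655, plus strand), which encodes adipsin (complement factor D), was at 20.6, 16.6 and 12.2 CPM from 627, 486 and 300 reads. Cfd was the only one of the 9 genes with enough reads to test that was highest in thymus 1, and its thymus 3 level was 0.591 times that in thymus 1 (0.513 to 0.679). Retn (chromosome 8, 3655770 to 3660110, plus strand), which encodes resistin, stood at 3.71, 4.06 and 2.52 CPM from 113, 119 and 62 reads. Retn in thymus 2 and thymus 1 could not be told apart, with a ratio of 1.09 and an interval of 0.837 to 1.43.

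The genes of lipid handling inside the cell differed by at most 1.69-fold between libraries. Fabp4 (chromosome 3, 10204088 to 10208576, minus strand) encodes the fatty acid binding protein aP2, which macrophages and capillary endothelium also make. It was at 73.5, 108 and 94.1 CPM in thymus 1, 2 and 3, from 2235, 3174 and 2320 reads. Plin1 (chromosome 7, 79720218 to 79732903, minus strand), which encodes perilipin, the coat of the adipocyte lipid droplet, was at 7.001, 11.2 and 8.64 CPM from 213, 328 and 213 reads. Both had the order thymus 2, 3, 1, as Lep did, and as Adipoq did within its counting error. Car3 (chromosome 3, 14863512 to 14872523, plus strand), the gene of carbonic anhydrase 3, a cytosolic enzyme of adipocytes and also of muscle and liver, was at 68.6, 93.9 and 55.7 CPM from 2086, 2754 and 1372 reads. Car3 was lowest in thymus 3, at 0.593 times thymus 2 (0.555 to 0.633), an order it shared with Retn.

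Levels were compared between genes per kilobase of 1 main transcript a gene. Fabp4 was highest at 103 ± 19.5 CPM per kilobase (SD, n = 3), followed by Car3 at 43.3 ± 11.6. Cfd at 17.8 ± 4.58 and Adipoq at 16.9 ± 3.62 CPM per kilobase differed by less than their spread. Next came Ucp1 at 3.99 ± 4.72, Lep at 3.86 ± 2.64 and Plin1 at 3.17 ± 0.748 CPM per kilobase. Below them were Retn at 3.01 ± 0.711 and Cidea at 2.09 ± 1.97 CPM per kilobase. The wide spreads of Ucp1, Lep and Cidea each took in the means of the others in this group. Those of Plin1 and Retn were narrower and did not take in the means of Ucp1 or Cidea. Elovl3 was last at 0.0432 ± 0.0411 CPM per kilobase. The mean of Ucp1 hides its range: at 0.482 CPM per kilobase in thymus 1 it was below Cidea (0.619), and at 9.35 in thymus 3 it was above Cidea (4.33), Lep (3.14), Plin1 (3.07) and Retn (2.21).

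Ratios of reads within a library need no scaling between libraries. For every 100 Adipoq reads there were 4.19 Ucp1 reads in thymus 1 (exact binomial 95% interval 2.66 to 6.30), 12.8 in thymus 2 (10.3 to 15.7) and 78.4 in thymus 3 (68.3 to 89.9). For Cidea there were 3.67, 5.38 and 24.7 reads per 100 Adipoq reads in thymus 1, 2 and 3. Relative to Adipoq, both brown fat genes were thus several times higher in thymus 3 than in either other library. Lep stood at 28.8, 81.2 and 52.4 reads per 100 Adipoq reads, so its excess in thymus 2 was larger than that of Adipoq. Plin1 stayed between 37.2 and 44.3 reads per 100 Adipoq reads, and its 3 intervals overlapped. Car3 ranged from 285 to 364 and Fabp4 from 390.1 to 482 reads per 100 Adipoq reads. Cfd had 109, 60.8 and 62.4 and Retn 19.7, 14.9 and 12.9 reads per 100 Adipoq reads, with thymus 1 highest for both. Set against Ucp1, there were 687.5, 636 and 66.8 Lep reads per 100 Ucp1 reads in thymus 1, 2 and 3, so thymus 3 alone held more Ucp1 than Lep reads.

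**Figure D2:**
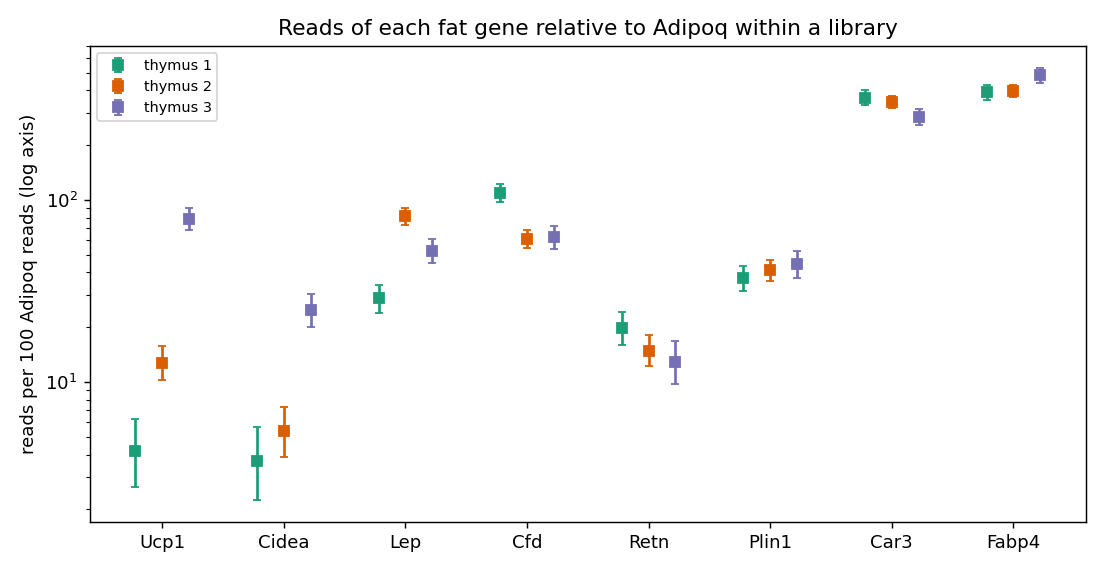
Reads of each gene per 100 Adipoq reads in the same library (log axis); squares are single libraries and bars are exact binomial 95% intervals, which cover counting error only. Plin1 lies level across thymus 1, 2 and 3, between 37.2 and 44.3, while Ucp1 spans 4.19 to 78.4.

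The spread between thymi was next read against all genes. Of the 10 genes 9 had enough reads to be tested, and Elovl3 had not. In 7 of the 9 the highest library was at least 1.5 times the lowest, against 13.9% of all 16548 tested genes, and the median ratio was 1.69 against 1.19 over all tested genes. Adipoq, at 1.45, and Fabp4, at 1.47, were the 2 below that mark. Fabp4 passed it with library totals in place of TMM (1.51), and with the GC trend removed Fabp4 passed it (1.595) and Plin1 did not (1.484). The count of 7 was 5 when thymus 1 was left out and 4 when either thymus 2 or thymus 3 was, where fewer libraries leave less room for a wide ratio. The share of all tested genes past the mark was not determined with 1 library left out. At least 2-fold ratios were found for Ucp1, Cidea and Lep, 3 of the 9, against 3.16% of all tested genes. Ordered by this ratio among all tested genes, Ucp1 was number 10 and Cidea number 26, while Lep was number 48. All 9 genes varied by more than counting noise, as did 43.4% of all tested genes (edgeR goodness of fit at a dispersion of 0, Benjamini-Hochberg 0.05). Of the 9 genes 0 were called more variable than the trend for their abundance by edgeR's quasi-likelihood test (Benjamini-Hochberg 0.05), against 0.0604% of all tested genes. At an unadjusted p under 0.05 there were 7 of the 9, against 4.42% of all tested genes. The negative binomial goodness of fit called 4 of them, Ucp1, Cidea, Lep and Car3, against 122 of all tested genes, and the DESeq2 dispersion check called Ucp1, Cidea and Lep, against 81. The quasi-likelihood call depended on the libraries in the fit: it took in Ucp1 when thymus 1 was left out, Ucp1 and Cidea when thymus 2 was, and Ucp1, Lep, Car3 and Fabp4 when thymus 3 was. Over all genes these 3 fits called 25, 23 and 137. Since the genes were named with this spread known, nothing is read from these counts.

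**Figure D3:**
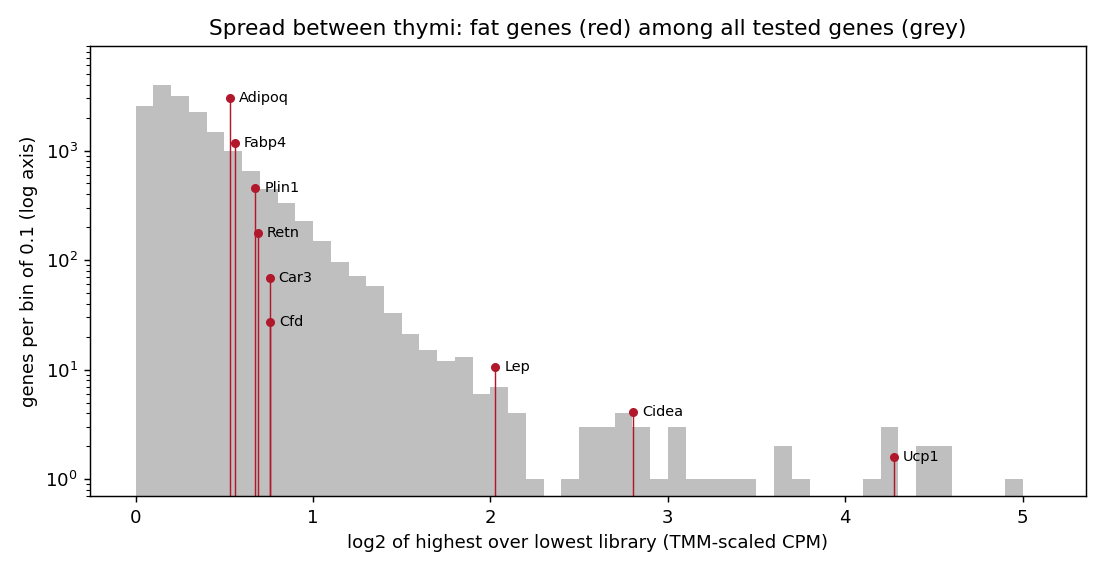
Highest over lowest library (log2 of the ratio of TMM-scaled CPM) for all 16548 tested genes (grey, genes per bin of 0.1, log axis) with the 9 tested fat genes as red stems, whose height has no meaning. Adipoq and Fabp4 stand nearest to the bulk of genes, and Lep, Cidea and Ucp1 stand in the far tail at ratios of 4.08, 6.995 and 19.4.

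As deviations of log2 CPM from each gene's own mean, the 9 tested genes had medians of -0.31, 0.27 and -0.07 in thymus 1, 2 and 3. Over all tested genes the medians were 0, 0 and -0.01. Thymus 2 was the highest library for 6 of the 9 genes, as it was for 38.0% of all tested genes. Thymus 3 was the highest for 2 of the 9, against 37.9%, and thymus 1 for 1 of the 9, against 24.1%. For Ucp1 the deviations were -2.07, -0.02 and 2.09 in thymus 1, 2 and 3, and for Lep they were -0.97, 1.04 and -0.07. Removing a smooth trend of the deviations with GC content in each library moved no deviation of the 9 genes by more than 0.1.

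The mean deviations of the 9 genes were -0.52, 0.27 and 0.24 in thymus 1, 2 and 3, and the value in thymus 3 was carried by Ucp1 (2.09) and Cidea (1.45), since the other 7 genes were at 0.05 or below there. The genes whose 3 deviations lay nearest to this mean were, among 14647 other genes of at least 1 CPM on average, Rn7sk, 9230112J17Rik, Ucp3, Scd1, Gm43712 and 5430402O13Rik. Their Euclidean distances were 0.005 to 0.068 in log2 units. Scd1, which encodes a stearoyl-CoA desaturase, stood at 78.5, 142 and 133 CPM in thymus 1, 2 and 3. These genes are thus near a mean that most of the 9 genes do not resemble, and with 3 libraries such a likeness rests on very few free values. Taken after the values were seen, the gene nearest to Ucp1 alone among 16547 others was Gm47283 on the Y chromosome (distance 0.954). The sex of the mice is not given in the labels, and nothing about it is read from this gene. Cidea (distance 1.069) and an immunoglobulin heavy chain variable gene (distance 1.07) came next and were in effect equally near. Further immunoglobulin variable genes and the neutrophil genes Ltf (distance 1.762) and Camp (distance 1.829) were also near, so this likeness was not specific to fat genes.

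Other genes of fat metabolism were followed in 9 lists with 89 genes, of which 79 had enough reads to test. Thymus 2 was the highest library for 44 of the 79, thymus 3 for 27 and thymus 1 for 8. Over all tested genes the shares were 38.0%, 37.9% and 24.1% in that order. The highest library was at least 1.5 times the lowest in 26 of the 79, against 13.9% of all tested genes. Leaving out thymus 1 gave 14, leaving out thymus 2 gave 11 and leaving out thymus 3 gave 17, and there were 12 of 53 when only genes with a mean of at least 5 CPM were kept. The share of all tested genes was not determined for these settings, so 13.9% is no background for them. Of the 79 genes 49 varied by more than counting noise, against 43.4% of all tested genes. For the rest the highest library is not resolved from counting error. Among these were Plin3, Acsl1 and Cavin1, highest in thymus 2 at ratios of 1.016, 1.086 and 1.060. The count of 44 was not repeated under other scalings.

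Lipid droplet and lipolysis genes were mostly highest in thymus 2, as Plin1 was. Of 10 tested this held for 7, against 38.0% of all tested genes. Of these 10 genes 8 varied by more than counting noise, against 43.4% of all tested genes. The median ratio was 1.33, and Plin4, Cidec and Pnpla3 passed the 1.5-fold mark, 3 of 10 against 13.9% of all tested genes. Cidec, which encodes the droplet fusion protein of white fat, was at 12.1, 19.7 and 12.5 CPM in thymus 1, 2 and 3. The most abundant genes per kilobase were Plin2, G0s2 and Pnpla2, at 24.7, 15.2 and 14.15 CPM per kilobase. Pnpla2, which encodes the lipase that starts triglyceride breakdown, was at 35.4, 43.7 and 32.4 CPM in thymus 1, 2 and 3. Cideb and Plin5 lay below 1 CPM in all 3 libraries.

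Fatty acid uptake and synthesis genes had median ratios of 1.24 in both lists, against 1.19 over all tested genes. Of 13 uptake and triglyceride genes 7 were highest in thymus 2 and 6 in thymus 3, against 38.0% and 37.9% of all tested genes. Only Dgat2 and Aqp7 passed the 1.5-fold mark, 2 of 13 against 13.9% of all tested genes. The spread of Aqp7 was not beyond counting noise. Fabp5, Slc27a1 and Lpl led per kilobase, at 281.5, 20.7 and 17.4 CPM per kilobase. Lpl, which encodes lipoprotein lipase, stood at 62.1, 86.2 and 66.8 CPM. Of 10 fatty acid synthesis genes 7 were highest in thymus 2, against the same 38.0%. Scd1, Thrsp and Mlxipl passed the mark, 3 of 10 against 13.9% of all tested genes. Of the 10 genes 8 varied by more than counting noise, against 43.4% of all tested genes. Acly, Elovl5 and Srebf1 led that list, at 42.0, 40.3 and 29.2 CPM per kilobase.

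Transcription factors of fat had a median ratio of 1.42 between highest and lowest library, with few reads for several of them. Pparg, the master regulator of adipocyte formation, was at 3.48, 5.11 and 5.23 CPM in thymus 1, 2 and 3, and Cebpa at 21.6, 22.1 and 19.4 CPM. Of 10 tested 2 passed the 1.5-fold mark, Pparg and Ebf2, against 13.9% of all tested genes. The spread of Ebf2 was not beyond counting noise. Per kilobase Cebpa, Rxra and Klf15 led, at 8.01, 6.14 and 3.75 CPM. Prdm16 and Ppargc1a, which promote the brown fat program, were at 3.40 ± 0.752 and 1.28 ± 0.168 CPM (SD, n = 3). Ebf2 and Ppara stayed below 1 CPM in all libraries, and Ppara had 2, 7 and 19 reads in thymus 1, 2 and 3.

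The brown and beige fat list had thymus 3 highest for 7 of its 9 tested genes, against 37.9% of all tested genes, and a median ratio of 1.41. Among those 7, Cpt1b, Letmd1 and Slc27a2 had highest over lowest ratios of only 1.031, 1.076 and 1.234. Their differences were not beyond counting noise. The count of 7 was 6 with reads of either strand, 4 with library totals in place of TMM and 8 with the GC trend removed. Cox8b, a subunit isoform of cytochrome oxidase found in brown fat and muscle, was at 3.52, 3.07 and 7.87 CPM in thymus 1, 2 and 3. Cox7a1, another such isoform, was at 1.84, 1.64 and 3.04 CPM. Both were thus highest in thymus 3, but unlike Ucp1 they were lowest in thymus 2. Adrb3, the receptor through which noradrenaline acts on fat, was at 2.17, 4.94 and 3.29 CPM and so had the order of Lep. Ucp3, at 1.35, 2.28 and 2.23 CPM, was the fourth gene of the list past the 1.5-fold mark. That makes 4 of 9 tested, against 13.9% of all tested genes. Per kilobase Letmd1 and Cox8b led with Gk, at 17.7, 13.4 and 5.96 CPM. Cpt1b, Fabp3, Zic1, Lhx8, Otop1 and Kcnk3 lay below 1 CPM in all libraries. Of the 50-base stretches of Fabp3 29.2% also occur in other genes, and of those of Cpt1b 78.6%, so their reads are uncertain. Fabp3 had 5, 7 and 17 reads and Otop1 4, 11 and 14 reads in thymus 1, 2 and 3. Zic1, a marker of interscapular brown fat in mice, had 0 reads in every library, which allows up to 0.0986 to 0.122 CPM.

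**Figure D4:**
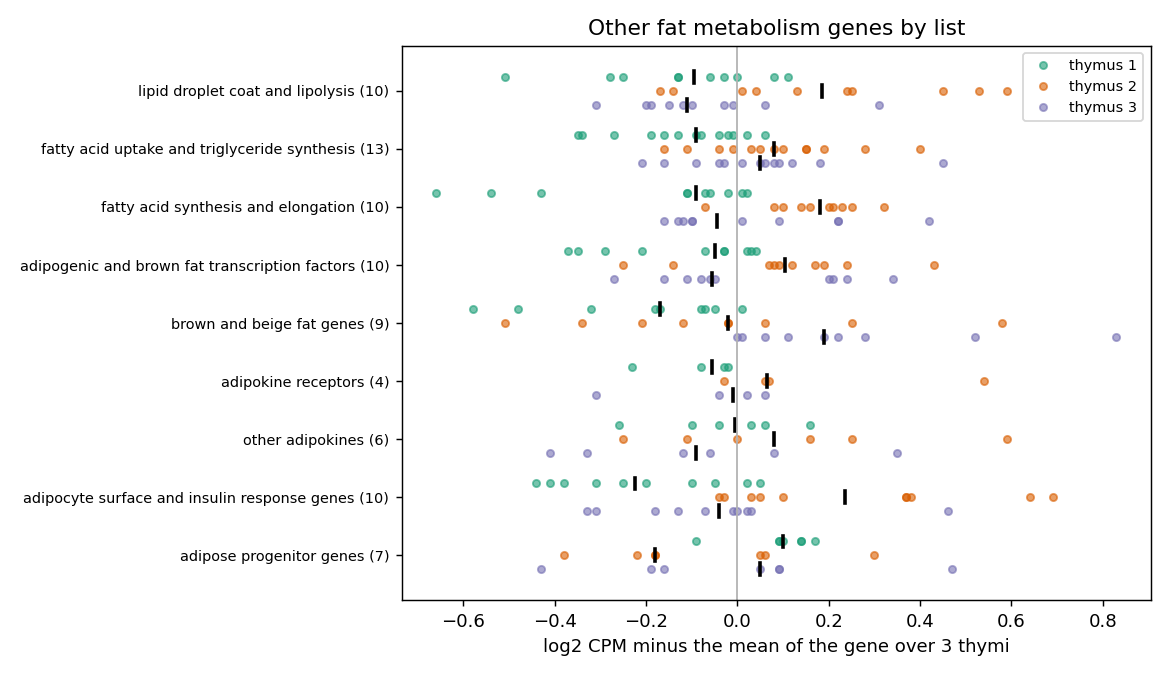
Deviation of log2 CPM from the gene's mean over 3 thymi for the 79 tested genes of 9 fat lists (number tested in brackets); points are genes, the colours are thymus 1, 2 and 3 from top to bottom within a list, and black ticks are medians. The median of the brown and beige list is highest in thymus 3 at 0.19, and that of the adipocyte surface list is highest in thymus 2 at 0.24.

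Genes of the adipocyte surface had the widest spread of the lists, with 6 of 10 past the 1.5-fold mark and a median ratio of 1.54. Of all tested genes 13.9% passed that mark. Of the 10 genes 5 varied by more than counting noise, against 43.4% of all tested genes. Aoc3, an amine oxidase of the white adipocyte surface, was at 3.94, 8.39 and 4.14 CPM in thymus 1, 2 and 3. Slc7a10, an amino acid transporter used as a white fat marker, was at 1.15, 2.28 and 1.14 CPM. Slc36a2, a transporter used as a marker of brown fat, was at 1.32, 1.77 and 2.52 CPM. P2rx5, a receptor also used as a marker of brown fat, was at 0.920, 1.398 and 0.933 CPM. Slc36a2 was thus highest in thymus 3 and Slc7a10 in thymus 2, both with a spread beyond counting noise. P2rx5 was also highest in thymus 2, but from 28, 41 and 23 reads its spread was not beyond counting noise. Its order was therefore not set against that of Slc36a2. Insr, Cav1 and Cavin1 led this list per kilobase, at 11.5, 7.95 and 5.78 CPM. Of the adipokine receptor genes, with a median ratio of 1.09, Adipor2 and Adipor1 had 41.5 and 33.2 CPM per kilobase, and the leptin receptor gene Lepr had 0.435. Cdh13, which encodes the adiponectin-binding T-cadherin, was the 1 of 4 receptor genes past the mark, at 0.690, 1.23 and 0.649 CPM. Its spread was not beyond counting noise, and 13.9% of all tested genes passed the mark.

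Of 6 other adipokine genes tested, with a median ratio of 1.37, 3 passed the mark, namely Rbp4, Rarres2 and Retnla. The share over all tested genes was 13.9%. Nampt, Retnla and Rarres2 led per kilobase, at 23.1, 8.96 and 5.01 CPM, and Agt stayed below 1 CPM in all libraries. Of 7 adipose progenitor genes tested, with a median ratio of 1.27, 4 were highest in thymus 1, 2 in thymus 3 and 1 in thymus 2. Over all tested genes the shares were 24.1%, 37.9% and 38.0% in that order. Pi16 and Zfp423 passed the mark, 2 of 7 against 13.9% of all tested genes. The spread of Zfp423 was not beyond counting noise. Ly6a, Dpp4 and Cd34 led per kilobase at 103, 24.1 and 8.56 CPM, and all 3 are also made by lymphoid or endothelial cells; Ly6a shares 19% of its 50-base stretches with other genes. Dlk1 and Zfp423 lay below 1 CPM in all libraries.

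Within their gene families the 10 genes held different ranks. Ucp1 had 3.99 CPM per kilobase, against 114.7 for Ucp2, the leading uncoupling protein gene. Ucp2 was at 445, 551 and 377 CPM in thymus 1, 2 and 3, so it was lowest where Ucp1 was highest. Fabp4 had 103 ± 19.5 CPM per kilobase (SD, n = 3), against 281.5 ± 14.5 for Fabp5, which shares 5.48% of its 50-base stretches with other genes. Cidea had 2.09 CPM per kilobase, against 8.61 for Cidec, and Elovl3 was the lowest of 7 Elovl genes. Car3 led the 16 carbonic anhydrase genes with 43.3 ± 11.6 CPM per kilobase, ahead of Car2 with 8.57 ± 0.613. Plin1 stood between Plin4 (2.49) and Plin3 (10.6 CPM per kilobase) among the perilipin genes. Retnla, which alternatively activated macrophages express, had 8.96 ± 2.09 CPM per kilobase, against 3.01 ± 0.711 for Retn. Of the 10 genes 9 shared 0% of their 50-base stretches with transcripts of other genes and Plin1 shared 0.172%, so reads of near-identical copies could hardly be split among them.

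Markers of other cells that may hold or adjoin fat were measured beside these genes. The 7 macrophage genes summed to 514, 470.1 and 435 CPM and the 6 blood endothelial genes to 115.5, 128 and 105 CPM in thymus 1, 2 and 3. All 13 reached 1 CPM in each library, led by C1qc and C1qb and by Pecam1 and Cdh5. Of the 7 macrophage genes 6 were highest in thymus 1, 1 in thymus 2 and 0 in thymus 3. Of the 6 endothelial genes 2 were highest in thymus 1, 3 in thymus 2 and 1 in thymus 3. Over all tested genes 24.1%, 38.0% and 37.9% were highest in thymus 1, 2 and 3. Of the 7 macrophage genes 6 varied by more than counting noise, and of the 6 endothelial genes 2, Pecam1 and Cdh5. Over all tested genes 43.4% did. For the rest the highest library is not resolved from counting error. Fabp4, which both cell types can express, was highest in thymus 2 and lowest in thymus 1. The 8 skeletal muscle genes summed to 36.2, 35.3 and 38.1 CPM, led by Mylpf and Tnnt3, with Acta1, Ckm, Myh4, Mb and Myog below 1 CPM throughout. Mylpf alone held 29.2, 29.0 and 31.9 CPM of that sum, and Tnnt3 was at 2.96, 2.83 and 2.56 CPM. Of the 4 muscle genes tested 0 varied by more than counting noise, against 43.4% of all tested genes. Their order was therefore not set against that of Car3. The 6 mesenchymal genes summed to 179, 152 and 189 CPM, led by Dcn and Col3a1, and the 4 parathyroid genes to 94.2, 46.6 and 63.5 CPM, led by Pth and Chga.

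Some markers were highest in thymus 3 together with Ucp1 and Cidea. All 5 neutrophil genes were highest there, against 37.9% of all tested genes. Their sum was 19.4, 15.6 and 42.8 CPM in thymus 1, 2 and 3, led by S100a9 and S100a8. All 3 mesothelial genes were highest in thymus 3 too, with a sum of 13.3, 9.85 and 20.9 CPM, led by Msln and Upk3b. In both lists thymus 2 was the lowest by the summed level, whereas Ucp1 and Cidea were lowest in thymus 1. The part of any of these cell types in the fat gene differences was not tested.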

How the data were processed

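RNA of 3 thymi was sequenced as stranded mRNA libraries, per the labels' protocols. The submitters' processing notes name STAR 2.5.3a, DESeq2 and GRCm38. The deposited files hold raw counts of reads per gene for unstranded, forward and reverse counting, as the authors left them; the reverse-strand counts were used. Of 52636 identifiers 52489 matched GENCODE M21 and 147 did not, and the summary lines for unassigned reads were left out. Reads on genes were 66.4% to 69.1% of all reads. Reads assigned to genes numbered 30414788, 28587087 and 25408442 in thymus 1, 2 and 3. Counts were scaled to CPM by TMM in edgeR 4.0.16 under R 4.3.3. Genes passing filterByExpr (minimum count 10, minimum total 15) were tested, 16548 in all. Spread was tested with an intercept-only quasi-likelihood fit (robust, with its largest prior df, 5.24, for all genes), whose quasi-dispersion was set against F, one-sided, with Benjamini-Hochberg adjustment at 0.05, and by goodness of fit. Deviations used log2 CPM with a prior count of 2. Exact 95% Poisson and binomial intervals cover counting error only. The fits were also run on simulated data with 1 dispersion for all genes. Dispersion differs between genes in the real data, so that run does not show how often a real spread is missed here.

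The members and lists were chosen with earlier results of these data known. Named were all members, the 3 highest genes per kilobase and those under 1 CPM of each list, paralogs, the 2 highest markers of each marker list given (1 such list is not reported here) and the 6 genes nearest in pattern. Other list genes, among them those past the ratio of 1.5, were named after their values were seen. The labels name no animal for a library, so any p-value reflects how far these 3 libraries differ, in part perhaps for technical reasons. Alternatives were other scalings, filters, strands, tools (DESeq2 1.42.0) and leaving out each library; removal of the GC trend (lowess span 0.3) was chosen after seeing the data.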

Additional observations from a re-analysis of the deposited data

Results flagged for a closer look

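Fabp4 had reads on the strand opposite to its own, 15, 17 and 14 in thymus 1, 2 and 3, where the limit that a count of 0 allows is 3, and this signal lies outside the reverse-strand counts used for its level. They were 0.667%, 0.533% and 0.600% of its reads on either strand, against 3.37%, 3.40% and 3.44% over all genes. No annotated gene overlaps Fabp4, and the source of these reads was not tested.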

How the results depend on the processing

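The mean levels of the 10 genes moved by less than the spread between libraries under 6 other scalings, filters and strand settings. Without thymus 3 the mean of Ucp1 was 2.16 CPM, against 6.52 CPM over all libraries, and that of Cidea was 1.09 CPM, against 2.33 CPM. Without thymus 2 the mean of Lep was 7.72 CPM, against 12.6 CPM. The number of the 9 tested genes called more variable than the trend, 0 as reported, was 1 with library totals (Ucp1), 4 with no filter on low counts and 4 by negative binomial goodness of fit (Ucp1, Cidea, Lep and Car3 in both), and 3 by DESeq2 (Ucp1, Cidea and Lep). Leaving out 1 library gave 1 to 4. Over all genes the count of 10 was 20 with library totals, 285 with no filter, 122 by goodness of fit, 81 by DESeq2 and 23 to 137 without 1 library. The 7 genes past the ratio of 1.5 were 3 at a ratio of 2, against 3.16% of all tested genes, and 4 to 5 without 1 library. The median deviation in thymus 3, -0.07 as reported, ranged from -0.22 to 0.15 without 1 library, and was 0.15 without thymus 2. Deviations are taken from the mean of the libraries kept, so with 2 libraries they mirror each other, as -0.15 in thymus 1 and 0.15 in thymus 3. Such a sign shows only which of the 2 libraries is higher. The cause of the changes in the other counts was not tested. Of the 79 genes of the fat lists, the 26 past the ratio were 6 at a ratio of 2, against 3.16% of all tested genes. They were 12 with a mean of at least 5 CPM, where fewer genes are tested, and 11 to 17 without 1 library. For these last settings the share of all tested genes was not determined. The 7 brown and beige genes highest in thymus 3 were 4 with library totals and 3 of 3 tested with a mean of at least 5 CPM. No paired analysis was possible because the labels give 1 group. Elovl3, at 1 to 5 reads, is below what this depth can compare.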
